A study of Mus musculus with 6 samples.

Results

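Serpins and Kazal-type inhibitors of the Spink family were examined in the testes of mice lacking Prss54, a gene of the serine protease family expressed in the testis. The group comprised every probe of the array whose gene name began with Serpin, a clade letter from a to i and a number, or with Spink and a number. This gave 67 of the 27376 gene names on the array, through 86 of its 41174 gene probes: 78 probes of 59 Serpin genes and 8 probes of 8 Spink genes. Total RNA came from testes of 3 Prss54KO and 3 WT male mice, all aged 6 to 8 weeks and on a mixed 129Sv/C57BL/6 background. Each mouse gave 1 array, hybridised with Cy3-labelled material made from 0.5 ug of RNA. The labels do not say which part of Prss54 was removed and name no litter, so the p-values measure the spread between these animals only.

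Serpins inhibit proteases by a suicide mechanism. The protease cuts an exposed reactive loop, stays covalently bound to the inhibitor and is distorted beyond use, after which the complex is cleared by receptors of the low density lipoprotein receptor family. Some members no longer inhibit proteases and carry hormones or fold collagen instead. Spink proteins carry Kazal domains, compact folds that block the active site of trypsin-like proteases tightly and reversibly. In the male tract such inhibitors are known to hold acrosin and other sperm proteases in check until fertilisation.

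The arrays were alike in quality. On each array 66.2% to 74.8% of the gene spots were detected well above background, the median processed signal was 204.0 to 220.5 intensity units, and kept probes correlated between arrays at 0.9941 to 0.9964. The arrays came from 3 slides with 1 scan each. Slide 1 held Prss54KO replicate 3, slide 2 held Prss54KO replicates 1 and 2 with WT replicate 3, and slide 3 held WT replicates 1 and 2. The Prss54 probe had a processed signal of 8421 ± 1042 in Prss54KO and 24316 ± 1727 in WT (SD, n = 3 each), a log2 difference of -1.56 (SE 0.10, limma's adjusted p 0.108, exact permutation p 0.1). Whether this probe lies in the deleted part is not known, so its signal does not by itself check the labels.

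Of the 86 Serpin and Spink probes, 36 were well above background on all 6 arrays, 11 on 3 to 5 arrays, 8 on 1 or 2 arrays and 31 on none. The 47 probes seen on at least 3 arrays, from 41 genes, entered the comparison of genotypes. The 18 genes above background on no array through any of their probes included Serpinb5 (maspin), Serpinb7, Serpinb10, Serpinb11, Serpinb12 and Serpinb13 of the intracellular clade b, whose members are best known from skin and other epithelia, and Spink5, the inhibitor of epidermal proteases. Serpina11, Serpina12 and Serpind1, the gene of heparin cofactor II, were also among them. By clade, 14 of 20 genes of the extracellular antitrypsin-like Serpina type were kept, 11 of 26 intracellular Serpinb genes, and 5 of 8 Spink genes. All 4 genes of the Serpinf1, Serpinh1 and Serpini type were kept.

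Most of the serpin genes lie in 3 tandem clusters (probe positions in mm9). A stretch of 0.80 Mb on chromosome 12 held 21 Serpina genes, 0.73 Mb on chromosome 1 held 12 Serpinb genes, and 1.14 Mb on chromosome 13 held 14 more Serpinb genes. Neighbours in such clusters can be near copies of each other, and for 7 of the 86 probes the array's own annotation listed transcripts of more than 1 gene. The Serpina1c and Serpina1d probes listed transcripts of up to 4 antitrypsin genes, so their signals cannot be given to 1 copy. When the 60-base probes were compared with each other, the closest pair of different targets, Serpinb9d and Serpinb9f, shared 44 bases. The match of probes to the transcripts of neighbouring genes was not tested.

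No serpin or Spink gene differed between the genotypes at the threshold used. With limma, 0 of the 47 kept probes passed an adjusted p of 0.05, as did 0 of all 28913 probes kept (0%). At an unadjusted p under 0.05 there were 2 of 47 (4.26%), against 3.2% of all probes, so the share among the inhibitors was close to the background. Both were lower in Prss54KO, against 1.48% of all probes lower, and 0 were higher, against 1.73% of all probes. The genotypes did not overlap for 3 of 47 (6.38%), against 7.81% of all probes. Of these 2 were lower in Prss54KO, against 3.6% of all probes, and 1 was higher, against 4.21%. The log2 difference was above 0 for 24 of the 47 probes (51.1%), against 53.3% of all probes.

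The differences were spread evenly around 0. Their median was 0.0003 on the log2 scale, against 0.0069 over all probes kept, and they ran from -0.59 for Spink3 to 0.69 for a Serpinb9 probe. The members scattered more than the array as a whole. Their median absolute log2 difference was 0.108, against 0.058 over all probes, and 33 of 47 (70.2%) stayed under 0.2, against 89.6% of all probes. The spread between mice of 1 genotype was also wider, with a median SD of 0.216 log2 units for the inhibitors and 0.105 for all probes.

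**Figure D1:**
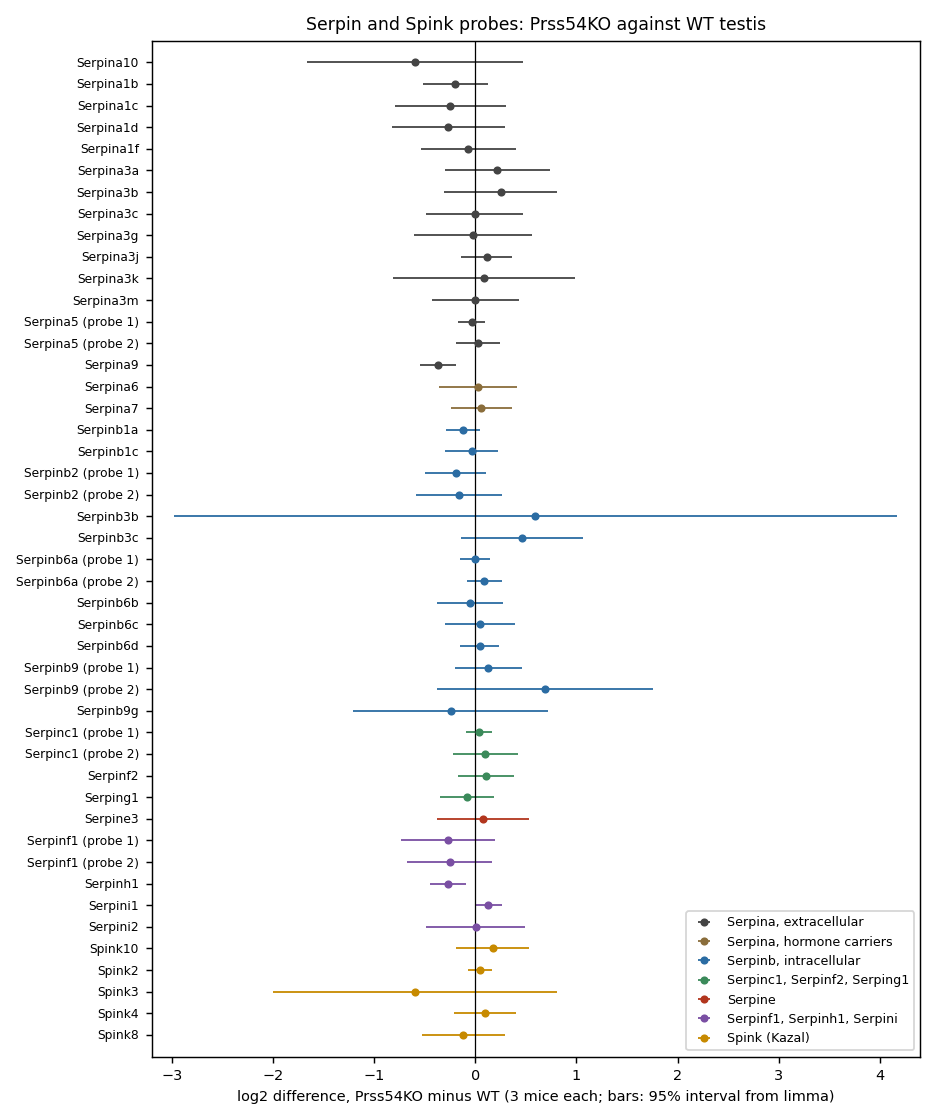
Log2 difference of 46 kept Serpin and Spink probes, Prss54KO minus WT (3 mice each), grouped by clade and role; points are limma estimates and bars their 95% intervals. Most intervals span 0, the medians of the groups lie between -0.25 and 0.07, and the bars of dim probes such as Serpinb3b are the widest.

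Spink2 and Serpina5, inhibitors with a known place in sperm or testis, had nearly equal signals in the genotypes. Spink2 encodes the acrosin inhibitor of the acrosome, and its loss is known to impair sperm formation in mice. Its probe gave 193940, 199984 and 201192 intensity units in the Prss54KO mice and 189234, 181633 and 195263 in the WT mice, each time in the order of replicates 1, 2 and 3. The groups overlapped, and after scaling the log2 difference was 0.04 (SE 0.05, 95% interval -0.08 to 0.16). On the level scale its SD within a genotype was 0.02, at the 1.28th percentile of all probes kept.

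Serpina5, the protein C inhibitor, is needed for male fertility in mice. The first of its 2 probes gave 12055, 10995 and 11690 in Prss54KO and 11542, 11312 and 12011 in WT. The second, which crosses an exon junction (chr12:105342063-105343412, plus strand, mm9), gave 635, 572 and 709 in Prss54KO and 580, 631 and 623 in WT. The groups overlapped in both, with log2 differences of -0.04 (SE 0.05) and 0.03 (SE 0.09). The junction probe is shown because it reports spliced transcript rather than genomic sequence.
Serpina5: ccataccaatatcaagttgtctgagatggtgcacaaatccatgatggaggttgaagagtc

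**Figure D2:**
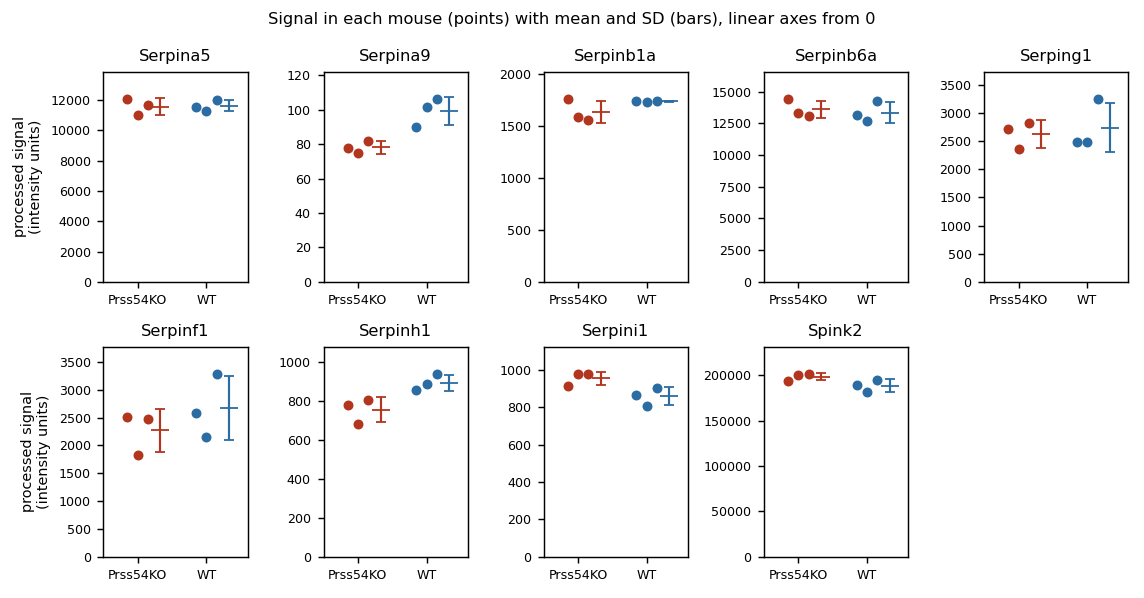
Processed signal in intensity units (linear axes from 0) of 9 inhibitors, 1 panel a gene, with the 3 Prss54KO mice in red at the left and the 3 WT mice in blue at the right; points are mice, bars mean and SD. Serpina9 and Serpinh1 separate with all Prss54KO mice lower, Serpini1 separates with all Prss54KO mice higher, and the other 6 panels overlap.

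In clade a, the antitrypsin-like serpins, Serpina9 had the smallest p of all members. This gene is known in humans as centerin, a serpin of germinal centre B cells. It gave 77.9, 74.6 and 81.9 in the Prss54KO mice, against 89.9, 102 and 106 in the WT mice. Every Prss54KO mouse read lower than every WT mouse. The log2 difference was -0.37 (SE 0.07), 1.29-fold lower, with an unadjusted limma p of 0.00213 and an adjusted p of 1. An exact permutation test gave p = 0.1, the floor for groups of 3 mice. Over the alternative settings the difference ran from -0.44 to -0.24.

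The other kept genes of the antitrypsin-like type gave no unadjusted p under 0.05. The remaining 14 probes of this type lay between -0.59 (Serpina10, the protein Z-dependent inhibitor of factor Xa) and 0.25 (Serpina3b). The kept Serpina10 probe had an SE of 0.44, and the other Serpina10 probe was above background on no array. The hormone carriers Serpina6, which binds corticosteroids, and Serpina7, which binds thyroxine, differed by 0.03 (SE 0.16) and 0.06 (SE 0.12). Serpina3n, an acute-phase antichymotrypsin, was well above background on 1 Prss54KO and 1 WT array and was not compared.

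Between mice, irrespective of genotype, 3 Serpina3 genes of the chromosome 12 cluster varied together. They were chosen after their values were seen. Serpina3g, known in mice to inhibit lysosomal cysteine cathepsins, gave 8334, 4369 and 7253 in Prss54KO and 6711, 5461 and 7126 in WT. Serpina3c gave 1722, 1024 and 1500 in Prss54KO and 1417, 1162 and 1532 in WT. Serpina3m gave 2787, 1768 and 2485 in Prss54KO and 2321, 1949 and 2544 in WT. Prss54KO replicate 1 was the highest and Prss54KO replicate 2 the lowest of the 6 mice in all 3 genes, and Serpina3c and Serpina3m ranked all 6 mice in 1 order. The log2 differences between genotypes, in the order Serpina3g, Serpina3c and Serpina3m, were -0.02 (SE 0.24), -0.01 (SE 0.20) and 0.00 (SE 0.18). Compared only with each other, over a limited range of shifts without gaps, their probes were identical at no more than 24 of 60 bases. The match of each probe to the transcripts of the other genes was not tested.

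The same cluster held genes with other orders. Serpina3a, between Serpina5 and Serpina3b in the cluster, gave 3051, 3403 and 2103 in Prss54KO and 1962, 2282 and 2908 in WT, with Prss54KO replicate 2 the highest. The Serpina1c and Serpina1d probes were lowest in Prss54KO replicate 3, and the Serpina1b probe was lowest in Prss54KO replicate 1. Serpina1d gave 1267, 1454 and 796 in Prss54KO and 1419, 1178 and 1434 in WT, and Serpina1c gave 57.3, 69.4 and 37.5 in Prss54KO and 57.1, 63.8 and 64.4 in WT. Replicate 3 thus lay 0.79 and 0.76 log2 units below the WT mean. The Serpina1c probe, with transcripts of 4 antitrypsin genes listed against it, is shown because its target cannot be given to 1 copy (chr12:105137263-105137322, minus strand, mm9).
Serpina1c: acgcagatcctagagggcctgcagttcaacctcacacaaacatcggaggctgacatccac

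Of the 16 kept probes counted with the chromosome 12 cluster, 1 of them a Serpina3k probe with no placement, Prss54KO replicate 2 was lowest in 9. How often that mouse was lowest over all kept probes was not counted, so this is not read as a trait of the cluster. The summed macrophage markers were also lowest in that mouse, at -0.27 log2 units relative to the WT mean. So was the fibroblast and matrix sum, at -0.34. The sums of the other marker lists were lowest in other mice. All 10 macrophage markers on the array were kept. All 10 were lower in Prss54KO (100%, against 46.7% of all kept probes), with a median log2 difference of -0.08 and 0 at an unadjusted p under 0.05. Lower markers also made up 88.2% of the fibroblast and matrix, 85.7% of the peritubular, 80% of the adipose and 80% of the blood list. The shares were 71.4% for endothelial, 62.5% for Leydig, 50% for spermatid, 36.4% for Sertoli and 28.6% for spermatocyte markers. For epididymis and liver markers they were 25% each. The macrophage markers were summed on a linear scale relative to each array's 75th percentile. Their sums were 4.44, 3.5 and 4.18 in Prss54KO and 4.24, 3.97 and 4.43 in WT. The part of the macrophage or the fibroblast and matrix markers in the Serpina3 values was not tested. In whole testis, fewer cells of a type and less RNA per cell cannot be told apart.

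**Figure D3:**
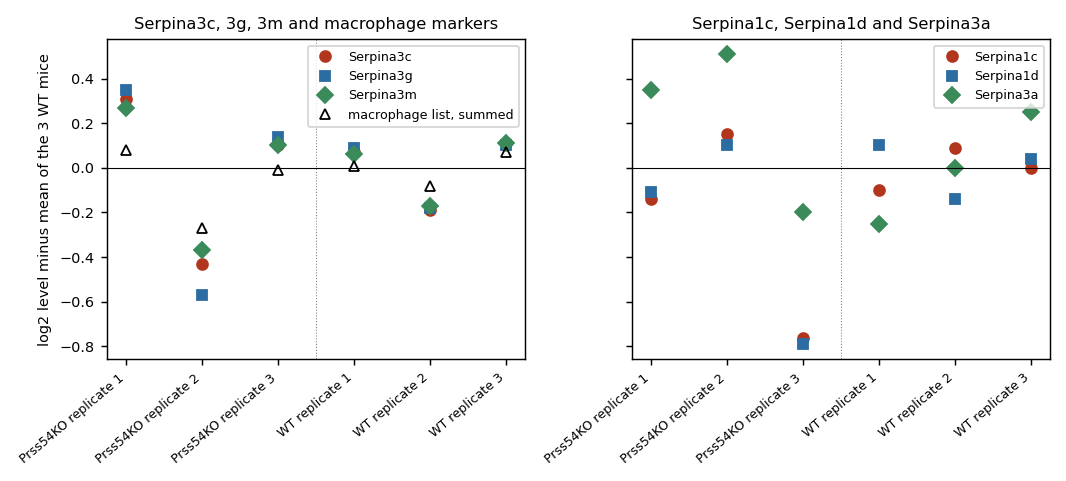
Log2 level in each mouse minus the mean of the 3 WT mice, with the Prss54KO mice at the left of each panel. In the left panel Serpina3c, Serpina3g, Serpina3m and the summed macrophage markers are all lowest in Prss54KO replicate 2; in the right panel Serpina1c and Serpina1d are lowest in Prss54KO replicate 3, at -0.76 and -0.79.

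Because these Serpina3 genes varied together, the 250 bases before the RefSeq start of Serpina3c (chr12:104153873-104154122, minus strand, GRCm38.p6) and Serpina3g (chr12:104235897-104236146, plus strand, GRCm38.p6) are given 5′ to 3′, from RefSeq. The capitals mark the longest run of bases the pair shared.
Serpina3c: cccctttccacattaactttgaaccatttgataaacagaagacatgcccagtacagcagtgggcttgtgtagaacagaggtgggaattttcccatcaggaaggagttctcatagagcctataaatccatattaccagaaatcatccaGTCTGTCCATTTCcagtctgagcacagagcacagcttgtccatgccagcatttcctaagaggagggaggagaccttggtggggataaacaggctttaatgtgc
Serpina3g: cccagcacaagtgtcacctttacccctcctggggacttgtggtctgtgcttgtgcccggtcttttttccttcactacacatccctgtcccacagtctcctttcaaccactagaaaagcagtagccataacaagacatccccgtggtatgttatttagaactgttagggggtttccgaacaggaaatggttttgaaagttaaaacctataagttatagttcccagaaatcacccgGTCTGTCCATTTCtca

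The shared run is 13 bases long, and its first base lies 103 bases before the start in Serpina3c and 16 bases before it in Serpina3g. It occurred, on either strand, in 3 of 32851 promoter windows of the table (0.00913%). These include the windows of Serpina3c and Serpina3g, from which the run was picked, so the share is no test of it. No promoter window was available for Serpina3m. The palindromic motif TTCNNNGAA, the form bound by STAT factors, had 0 matches in the Serpina3c stretch and 1 in that of Serpina3g, beginning 33 bases before the start. It was present in 7.02% of all promoter windows. These matches describe the letters only.

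A pseudogene of the same cluster was seen in single mice of each genotype. The upstream of the 2 Serpina4-ps1 probes gave 395, 8.6 and 5.1 in the Prss54KO mice, against 241, 6.1 and 6.5 in the WT mice. It was well above background in Prss54KO replicate 1 and WT replicate 1 only. The downstream probe gave 10.2, 8.8 and 14.2 in Prss54KO and 7.2, 11.2 and 14.9 in WT, above background in none. These mice were on different slides. The probes overlap by 31 bases.

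The intracellular Serpinb genes, which guard cells against their own granule and lysosomal proteases, gave no probe at an unadjusted p under 0.05. Of their 14 kept probes 7 were higher and 7 lower, with a median log2 difference of 0.02. Serpinb6a, whose human counterpart inhibits cathepsin G, gave 14398, 13303 and 13112 in Prss54KO and 13145, 12677 and 14231 in WT with its first probe. The groups overlapped, and the difference was -0.00 (SE 0.06). Its second probe gave 128, 122 and 138 in Prss54KO and 114, 123 and 119 in WT, a difference of 0.09 (SE 0.07), and its remaining probe was above background on no array.

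Serpinb1a, an inhibitor of neutrophil elastase and cathepsin G, gave 1760, 1586 and 1564 in Prss54KO and 1745, 1738 and 1742 in WT. In signal, Prss54KO replicate 1 lay above the WT mice and the other two Prss54KO mice below them. The log2 difference was -0.12 (SE 0.07, unadjusted limma p 0.125), and -0.03 within slide 2. Serpinb2, the second plasminogen activator inhibitor, gave 43.5, 61.6 and 58.5 in Prss54KO and 62.3, 65.0 and 51.1 in WT with one probe, and 39.6, 41.6 and 51.5 in Prss54KO and 44.1, 53.7 and 50.3 in WT with the other. The groups overlapped in both, at -0.16 (SE 0.17) and -0.19 (SE 0.12).

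Serpinb9, the inhibitor of granzyme B, had the largest positive difference through one of its probes, and that value moved with the mice included. The probe gave 85.4, 156 and 47.0 in Prss54KO and 42.1, 65.1 and 51.3 in WT, a log2 difference of 0.69 (SE 0.44). Without Prss54KO replicate 2 the difference was 0.25, without Prss54KO replicate 3 it was 1.13, and within slide 2 it was 1.2. The other Serpinb9 probe gave 122, 140 and 113 in Prss54KO and 96.1, 127 and 114 in WT, a difference of 0.13 (SE 0.14). Both groups overlapped, and the probes differed by 0.56 log2 units in their estimates.

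In the Serpinb3 family, whose human counterparts inhibit lysosomal cathepsins and cathepsin G, detection depended on the probe. Serpinb3c gave 175, 168 and 199 in Prss54KO and 88.8, 124 and 190 in WT with one probe, a log2 difference of 0.46 (SE 0.25) with overlapping groups. Within slide 2 the difference was -0.12. Its other probe, which crosses a junction (chr1:109168602-109169283, minus strand, mm9) and lists transcripts of Serpinb3b as well, was above background on no array. It is shown because it reports on spliced transcript and was not detected where the first probe was.
Serpinb3c: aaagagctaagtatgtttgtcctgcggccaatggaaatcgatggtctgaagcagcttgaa

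Serpinb3b varied more between mice of 1 genotype than nearly any other probe, at the 99.98th percentile of within-genotype SD. It gave 78.5, 159 and 5.2 in the Prss54KO mice, against 62.2, 43.0 and 6.7 in the WT mice. Replicates 1 and 2 of both genotypes were well above background, and replicate 3 of neither was. The log2 difference was 0.59 with an SE of 1.47. This probe also lists transcripts of Serpinb3a.

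**Figure D4:**
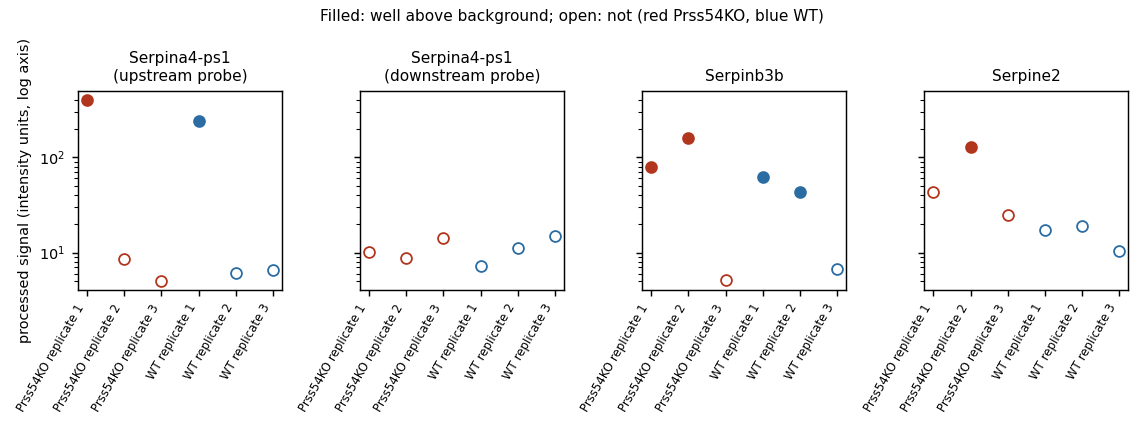
Processed signal in intensity units (log axis) of 4 probes in each mouse, Prss54KO in red at the left and WT in blue at the right; filled points are well above background and open points are not. The upstream Serpina4-ps1 probe is filled in replicate 1 of each genotype, Serpinb3b in replicates 1 and 2 of each, Serpine2 in Prss54KO replicate 2 only, and the downstream Serpina4-ps1 probe in none.

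Among the regulators of coagulation and complement, 3 of 4 genes were kept and none reached an unadjusted p under 0.05. Serping1, the C1 inhibitor, gave 2714, 2352 and 2824 in Prss54KO and 2490, 2480 and 3243 in WT. The groups overlapped, at -0.08 (SE 0.11), and within slide 2 the difference was -0.33. Serpinc1, antithrombin, gave 218, 154 and 199 in Prss54KO and 171, 177 and 170 in WT with one probe (0.10, SE 0.13), and 188, 191 and 205 in Prss54KO and 186, 180 and 192 in WT with the other (0.04, SE 0.05). Both pairs of groups overlapped. Serpinf2, the inhibitor of plasmin, differed by 0.11 (SE 0.11). Of 8 genes made mainly by the liver, Alb, Ttr, Apoa1 and Fga were above background on no array and the other 4 were kept.

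Clade e holds the inhibitors of plasminogen activators, proteases that Sertoli cells secrete. Serpine3 differed by 0.08 (SE 0.19).

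Serpine2, protease nexin 1, inhibits thrombin and plasminogen activators. Its only probe gave 43.7, 128 and 24.9 in Prss54KO and 17.2, 19.2 and 10.5 in WT. The values did not overlap, but only Prss54KO replicate 2 was well above background, so the gene was left out of the comparison above. No fold is given, since only that 1 mouse was detected. The lowest signal marked well above background was 46.0 on the array of Prss54KO replicate 1 and 29.7 to 35.1 on the WT arrays. With no filter on dim probes, Serpine2 was among the 5 members at an unadjusted limma p under 0.05 (5.81%, against 4.06% of all probes). The probe crosses an intron (chr1:79793476-79796093, minus strand, mm9) and is given because it is the only report on this gene.
Serpine2: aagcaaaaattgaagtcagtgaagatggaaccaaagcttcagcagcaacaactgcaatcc

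The non-inhibitory and neural serpins held the other member at an unadjusted p under 0.05. Serpinh1 encodes Hsp47, the collagen chaperone of the endoplasmic reticulum, and gave 781, 684 and 806 in Prss54KO and 855, 889 and 938 in WT. Every Prss54KO mouse read lower than every WT mouse. The log2 difference was -0.27 (SE 0.07), 1.21-fold lower, with an unadjusted limma p of 0.00948, an adjusted p of 1 and an exact permutation p of 0.1. Over the alternative settings it ran from -0.33 to -0.21.

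Serpinf1, pigment epithelium-derived factor, an inhibitor of vessel growth that binds collagen, differed by about as much with a wider spread. One probe gave 2515, 1829 and 2476 in Prss54KO and 2577, 2150 and 3277 in WT, and the other 221, 173 and 261 in Prss54KO and 219, 227 and 328 in WT. The groups overlapped in both. The log2 differences were -0.25 (SE 0.17) and -0.27 (SE 0.19), and within slide 2, with 1 WT mouse, they were -0.58 and -0.71. Without Prss54KO replicate 2 they were -0.11 and -0.12, and without WT replicate 3 they were -0.12 and -0.11.

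Most markers of fibroblasts and matrix were also lower in Prss54KO. All 17 of the list were kept and 15 were lower in Prss54KO. The 15 of 17 are 88.2%, against 46.7% of all kept probes. Of the 17, 4 reached an unadjusted p under 0.05 (23.5%, against 3.2% of all kept probes) and 0 an adjusted p under 0.05, with a median log2 difference of -0.24. Their summed level was 63.8, 52.9 and 64.6 in Prss54KO and 67.7, 62.1 and 72.0 in WT. By mouse, relative to the WT mean, this sum stood at -0.08, -0.34 and -0.06 log2 units in Prss54KO and 0.01, -0.11 and 0.10 in WT. Serpinh1 stood at -0.22, -0.40 and -0.19 in Prss54KO and -0.05, 0.04 and 0.01 in WT. The sum overlapped between the genotypes, while Serpinh1 did not. WT replicate 2 was the highest mouse in Serpinh1 and the lowest WT mouse in the sum. The part of the matrix markers in the Serpinh1 and Serpinf1 values was not tested.

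**Figure D5:**
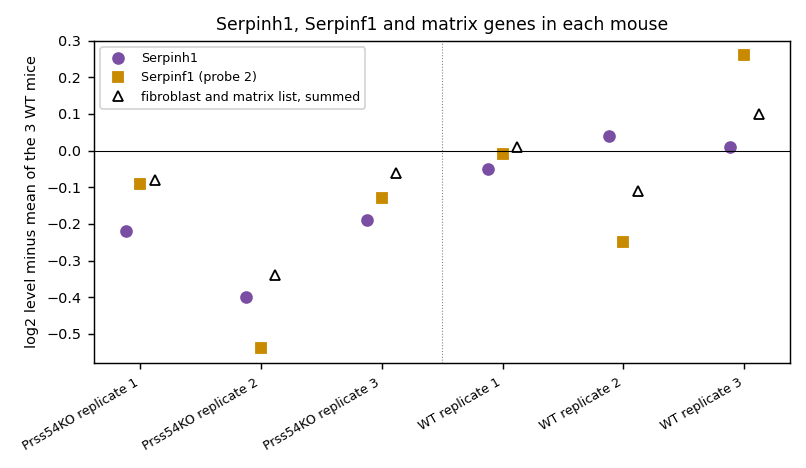
Log2 level in each mouse minus the mean of the 3 WT mice for Serpinh1, the Serpinf1 probe with signals of 1829 to 3277, and the summed fibroblast and matrix list, with the Prss54KO mice at the left. All 3 are lowest in Prss54KO replicate 2, at -0.40, -0.54 and -0.34, and Serpinh1 is below every WT mouse in each Prss54KO mouse.

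Serpini1, neuroserpin, an inhibitor of tissue plasminogen activator, was the only kept member whose Prss54KO mice all lay above the WT mice. It gave 917, 978 and 977 in Prss54KO and 864, 808 and 904 in WT. The log2 difference was 0.13 (SE 0.06), 1.09-fold higher, with an unadjusted limma p of 0.0594 and an adjusted p of 1. Serpini2, a serpin of the pancreas, differed by 0.00 (SE 0.20).

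Besides Spink2, 4 Kazal inhibitors were kept. Spink10 gave 76.7, 81.4 and 110 in Prss54KO and 73.0, 69.4 and 89.3 in WT, with overlapping groups and a difference of 0.17 (SE 0.15), which was -0.14 within slide 2. Spink4 and Spink8 differed by 0.10 (SE 0.13) and -0.12 (SE 0.17). Spink3, the mouse counterpart of the human pancreatic trypsin inhibitor, was well above background on 1 Prss54KO and 2 WT arrays and differed by -0.59 with an SE of 0.58. Spink5, Spink6 and Spink12 were above background on no array.

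Lists of genes that these inhibitors act on or with were also compared. Of 46 serine proteases listed as possible targets 41 were kept, through 48 probes, of which 34 (70.8%, against 46.7% of all kept probes) were lower and 14 higher (median log2 difference -0.06, 1 at an unadjusted p under 0.05, Prss54 itself). Ctsg, the neutrophil protease cathepsin G, gave 58.5, 72.4 and 79.8 in Prss54KO and 81.6, 113 and 81.5 in WT. The log2 difference was -0.41 (SE 0.18, unadjusted limma p 0.0647). The genotypes did not overlap, as for 7.81% of all kept probes, but their closest scaled levels were -4.40 in Prss54KO and -4.39 in WT. Plat, tissue plasminogen activator, differed by -0.19 (SE 0.09). All 5 listed lysosomal cysteine proteases were kept, with a median of -0.02 over 6 probes. Those with the smallest p were Ctsb, Ctsk and Ctss, at 0.106 (SE 0.115), -0.099 (SE 0.110) and -0.081 (SE 0.167). Ctss, cathepsin S of antigen-presenting cells, gave 2716, 1689 and 2301 in Prss54KO and 2302, 2119 and 2409 in WT. Ctss and Ctsk were lowest in Prss54KO replicate 2, and Ctsb was lowest in WT replicate 2.

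All 10 receptors and cofactors were kept, with 6 of 13 probes lower, 7 higher and a median of 0.01. Acrbp, the acrosomal protein that binds proacrosin, gave 47854, 48381 and 51830 in Prss54KO and 45308, 42561 and 48468 in WT, a log2 difference of 0.09 (SE 0.06). Its signals overlapped between the genotypes, though its scaled levels did not. Thbd, thrombomodulin, differed by -0.08 (SE 0.13) and Lrp2, an endocytic receptor for serpin complexes, by 0.07 (SE 0.10). Of 41 inhibitors from other families 34 were on the array and 27 were kept, through 33 probes, of which 21 were lower and 12 higher with a median of -0.02. The 21 lower probes are 63.6%, against 46.7% of all kept probes. The unadjusted p was under 0.05 for 3 of the 33 probes (9.09%, against 3.2% of all kept probes): Wfdc1, a whey acidic protein-type gene, at -0.23 (SE 0.08), and Itih4 and Itih5, heavy chain genes of the inter-alpha-trypsin inhibitor family, at 0.32 (SE 0.11) and -0.22 (SE 0.08). None of these lists held a probe past limma's adjusted p of 0.05.

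Marker lists for other cells showed which tissues the RNA held. All 8 spermatid and all 7 spermatocyte markers were kept, with median log2 differences of 0.00 and 0.035. The medians were 0.03 for 11 Sertoli, -0.06 for 8 Leydig, -0.03 for 7 peritubular, -0.12 for 7 endothelial and -0.16 for 5 adipose markers. The summed blood markers ranged over the 6 mice between 10.45 in WT replicate 2 and 26.5 in WT replicate 1, with a median difference of -0.45 over 5 genes. Of 9 epididymis markers 5 (Lcn5, Lcn8, Crisp1, Adam7 and Teddm1) were above background on no array, and the median of the 4 kept was 0.16. The 4 kept liver genes had a median of 0.02.

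Slide and genotype were partly bound together, since only slide 2 held both. Slide 2 held 2 Prss54KO arrays and 1 WT array, so the WT mice have no spread of their own there. The values within it are given as differences only. The log2 difference within slide 2 was -0.44 for Serpina9, -0.33 for Serpinh1 and 0.10 for Serpini1.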

How the data were processed

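The deposited scanner files hold spot intensity, not yet scaled between arrays. Their software was Agilent Feature Extraction, 10.7.3.1 per the file headers and 10.7 per the submitters' processing notes, and the processed signal is the brightness after that software's background treatment. Other deposited columns hold marks for spots well above background, saturated or outlying, and place probes on mm9. The deposited table of the series holds log2 values. Its 6 columns have near-identical quantiles (median 7.72), so it is quantile normalized. Which software made it is not stated, and it served as an alternative only.

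The level was the log2 processed signal after subtracting, in log2, the 75th percentile of gene probes on that array. Signals quoted in the text are before this scaling. Spots of 1 probe were averaged, control and outlier spots were left out (0 of the members' spots were outliers or saturated), and a probe was kept if 3 or more of the 6 arrays had it well above background. Genotypes were compared probe by probe with two-sided tests in limma 3.58.1 (lmFit, eBayes; R 4.3.3), adjusted by Benjamini-Hochberg over 28913 probes. SE is limma's moderated standard error. Single probes also had a two-sided exact permutation test. The number of arrays limits the precision.

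All 86 member probes matched the RefSeq table (GRCm38.p6), 77 by accession and 9 by symbol. No genome was used, so exons and untranslated regions under most probes are not given. The members and gene lists were chosen with earlier results of these data known. The text gives signals for members with the smallest p (5 a direction), with a known place in the testis, with 2 or more kept probes or with genotypes that do not overlap, and, from each pathway list, up to 3 genes with the smallest p. The values of 1 kept member are not reported here. The between-mouse patterns were chosen after their values were seen.

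Same-numbered replicates of the genotypes correlated at -0.044, 0.02 and -0.154 in their deviations, so the numbers were not taken to pair the mice. Alternatives were quantile or median scaling, 1 probe a gene, normexp correction (offset 50), a filter requiring all 6 arrays or no filter, the authors' table, slide 2 alone, the slide as a random or fixed block, a replicate block, array weights, and leaving out each mouse.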

Additional observations from a re-analysis of the deposited data

How the results depend on the processing

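The log2 differences of Serpina9, Serpinh1, Serpini1, Serpinf1, Serpinb1a and Serpinb9 kept their direction in the alternatives run, and no member passed limma's adjusted p of 0.05 in any of them. Over all probes, 1 passed with normexp correction and 1 with the filter on all 6 arrays (Prss54 in both), and 1 with the slide as a fixed block (Klf1), against 0 otherwise. Members at an unadjusted p under 0.05 numbered 2, but 5 of 86 with no filter (5.81%, against 4.06% of all probes) and 5 with the slide as a fixed block (10.6%, against 4.4% of all probes). No count is given for slide 2 alone, where the spread comes from 2 Prss54KO mice only. Leaving out 1 mouse gave 2 to 6: 6 without Prss54KO replicate 2 (12.8%, against 3% of all probes), 5 without Prss54KO replicate 1 (10.6%, against 4.37%) or replicate 3 (10.6%, against 3.51%), and 4 without WT replicate 3 (8.51%, against 6.24%). With the replicate block, whose numbers do not pair the mice, there were 3 (6.38%, against 3.9% of all probes), and it changed no other call. The median of the members ran from -0.062 (slide as a block or slide 2 alone) to 0.061 (no filter).

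Some differences changed sign, among them that of Serpinb3c, which was 0.46 in the comparison reported. On slide 2 alone and with the slide block, the Serpina5 junction probe stood at -0.011, a Serpinb2 probe at 0.054, Serpinb3c at -0.117 and Spink10 at -0.142. With normexp the Serpina5 junction probe was at -0.001 and Serpinb6a at 0.017, and Serpinb6a was at 0.003 with array weights. Spink2 was at -0.005 with quantile normalization and -0.006 in the authors' table. When 1 mouse was left out, the ranges were -0.043 to 0.10 for the Serpina5 junction probe, -0.044 to 0.030 for Serpinb6a, -0.006 to 0.238 for a Serpinc1 probe and -0.135 to 0.018 for Serping1. The cause was not tested. Signal over background limits the 31 probes seen on no array and the dim members, for which these arrays give no difference.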
